A study of Rattus norvegicus with 27 samples.

Results

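The 8 genes described here, Ngfr, Gap43, Ncam1, L1cam, Gfap, Vim, Nes and S100b, are markers by which immature and non-myelinating Schwann cells are told from myelinating ones. They were taken by name from a table of 17315 genes, and all 8 were found and passed the filter on low counts. The cells were primary rat Schwann cells, the glia of peripheral nerve, bought from a supplier and used at passages 3 to 5, so the cultures need not come from separate animals. Each of 3 stages had 3 libraries of cell mRNA. Undifferentiated cells were never given dbcAMP, the dibutyryl form of the second messenger cyclic AMP, which enters cells. Differentiated cells were kept for 72 h in DMEM with 1 mM dbcAMP and 1% exosome-depleted serum. Dedifferentiated cells received the same treatment and then spent a further 72 h without dbcAMP in a medium with 10% exosome-depleted serum, forskolin, which itself raises cyclic AMP, and 10 ng/mL neuregulin. Before dbcAMP the cells passed through the complete medium and an overnight starvation medium. The labels do not say which medium the undifferentiated cells were in at harvest, so the effect of dbcAMP and that of the medium cannot be told apart. There were no axons in these cultures, so markers of non-myelinating cells were read without the contact that sets them in nerve.

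In developing nerve, immature Schwann cells carry the low-affinity neurotrophin receptor, the adhesion molecules of the immunoglobulin family and the growth-associated protein. Cells that go on to myelinate large axons switch these genes off as the myelin genes come on, whereas Remak cells, which ensheathe small axons without myelin, keep them, and injured nerve brings them back in repair cells. Cyclic AMP is the classical agent that drives cultured Schwann cells along the myelin programme. The 3 stages ask how far these markers leave under dbcAMP and return after its withdrawal, in a medium that holds forskolin. S100b is used as a general Schwann cell marker, and Vim and Nes encode intermediate filament proteins of many immature cells.

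The libraries held 10058735 to 16212278 estimated counts, and values are given as CPM, the counts scaled to a fixed column total of 1e6. The smallest level that 3 counts can show was 0.185 to 0.298 CPM. Log2 CPM correlated at 0.975 to 0.992 within stages and at 0.831 to 0.942 between stages. Of 8 Schwann cell markers 7 were matched, and all 7 were above 3 counts in all 9 libraries, with Sox10 at means of 1339, 1045 and 1458 CPM in undifferentiated, differentiated and dedifferentiated cells. All 12 myelin reference genes were called higher in differentiated than in undifferentiated cells, where 31.7% of all genes tested were. Their median log2 change was 6.94. Among markers of other cells, Lum and Tcf21 of the fibroblast list were at 0 in every library and Dpt did not pass 3 counts in any. The sum of the 10 genes on that list was 24544 to 29246 CPM in undifferentiated, 12690 to 16484 in differentiated and 16351 to 19898 in dedifferentiated cells. That sum was led by Col1a1, with means of 17153, 6697 and 10827 CPM in the same order, and Col1a2. Other genes of the list did not fall with it. Pdgfrb had means of 136, 674 and 321 CPM, and Col3a1 of 53.2, 92.0 and 147 CPM. Of 9 neuronal markers Rbfox3, Elavl4, Snap25, Syt1 and Isl1 did not pass 3 counts in any library, and the list summed to 72.2 to 98.7, 48.2 to 56.3 and 50.4 to 70.7 CPM in the same order, led by Tubb3. Of 6 astrocyte markers Aqp4, Aldh1l1, Slc1a2 and Gjb6 did not pass 3 counts in any library, and the other two were Gfap itself and Slc1a3. Slc1a3, a glutamate transporter, had means of 15.7, 0.533 and 3.27 CPM in the same order, and was called lower under dbcAMP and higher on withdrawal, as Gfap was. In bulk RNA a smaller share of cells that express a gene and less RNA per cell cannot be told apart. The part of these shifts in the results was not tested.

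RefSeq promoter sequences (build GRCr8) were matched for 4 of the 8 genes, Gfap, Vim, Nes and S100b, and all 4 are shown. These genes took 3 different courses under dbcAMP. Each line gives the 250 bases before the annotated transcription start, 5′ to 3′ on the gene's own strand. Capitals mark matches, on either strand, to 1 of 7 motifs: the cAMP response element TGACGTCA, its core TGACG (which the full element contains), the AP-1 motif TGANTCA, the Sox motif AACAAT, the GC box GGGCGG, the CAAT box spelled CCAAT and the TATA box TATAAA.
Gfap (RefSeq, GRCr8, chr10:88361662-88361911, - strand): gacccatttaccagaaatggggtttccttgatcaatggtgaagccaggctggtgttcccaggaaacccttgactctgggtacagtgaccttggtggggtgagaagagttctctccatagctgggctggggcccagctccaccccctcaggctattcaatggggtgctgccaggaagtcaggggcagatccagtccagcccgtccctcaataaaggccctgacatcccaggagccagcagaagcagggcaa
Vim (RefSeq, GRCr8, chr17:81577011-81577260, + strand): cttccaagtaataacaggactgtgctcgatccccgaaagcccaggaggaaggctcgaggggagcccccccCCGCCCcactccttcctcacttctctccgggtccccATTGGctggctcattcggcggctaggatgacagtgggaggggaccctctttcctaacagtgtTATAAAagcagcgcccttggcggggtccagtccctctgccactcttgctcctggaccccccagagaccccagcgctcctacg
Nes (RefSeq, GRCr8, chr2:175736338-175736587, + strand): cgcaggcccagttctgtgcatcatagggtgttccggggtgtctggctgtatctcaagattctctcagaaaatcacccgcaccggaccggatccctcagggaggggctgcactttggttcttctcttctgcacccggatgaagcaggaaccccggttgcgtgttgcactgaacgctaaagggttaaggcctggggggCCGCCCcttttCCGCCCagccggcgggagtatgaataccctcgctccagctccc
S100b (RefSeq, GRCr8, chr20:12381082-12381331, - strand): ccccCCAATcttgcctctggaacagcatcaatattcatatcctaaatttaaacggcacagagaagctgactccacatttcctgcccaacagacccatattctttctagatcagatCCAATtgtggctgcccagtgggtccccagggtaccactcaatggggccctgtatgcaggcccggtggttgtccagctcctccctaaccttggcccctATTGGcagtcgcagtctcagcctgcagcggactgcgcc

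These windows hold matches to different motifs, and a match shows the letters alone. The Vim window has a TATA box that begins 82 bases before the start, a CAAT box at 144 bases and a GC box at 180 bases. The Nes window has a pair of GC boxes, which begin 54 and 43 bases before the start, and none of the other motifs. The S100b window has 3 CAAT boxes, at 246, 135 and 38 bases, and the Gfap window has no match to any of the 7 motifs. Over all 33469 windows of this length, 12.9% hold the TATA box, 34% the CAAT box and 30.5% the GC box. None of the 4 windows holds the cAMP response element, its core, the AP-1 motif or the Sox motif, which 1.59%, 18.2%, 6.34% and 10.3% of all windows hold, and this says only that these letters are not in these windows. The Gfap window has 1 CpG dinucleotide, fewer than the median of 5 over all windows, S100b has 5, Vim 11 and Nes 14.

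Under dbcAMP the markers did not move as a group. Ngfr, Gap43, L1cam, Gfap and Nes fell, Ncam1 and S100b rose, and Vim did not pass the threshold. Thus 7 of 8 were called in edgeR's quasi-likelihood test (adjusted p under 0.05 over all 10372 genes tested), 5 lower and 2 higher. The background is high, since 59.6% of all genes tested were called in this comparison, 31.7% higher and 27.9% lower. For the same 7 markers no library of one stage lay within the range of the other, as for 66.3% of all genes tested. The median log2 change of the 8 was -1.19, beside 0.05 for all genes tested. The plot of CPM by library shows the 8 genes side by side.

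**Figure D1:**
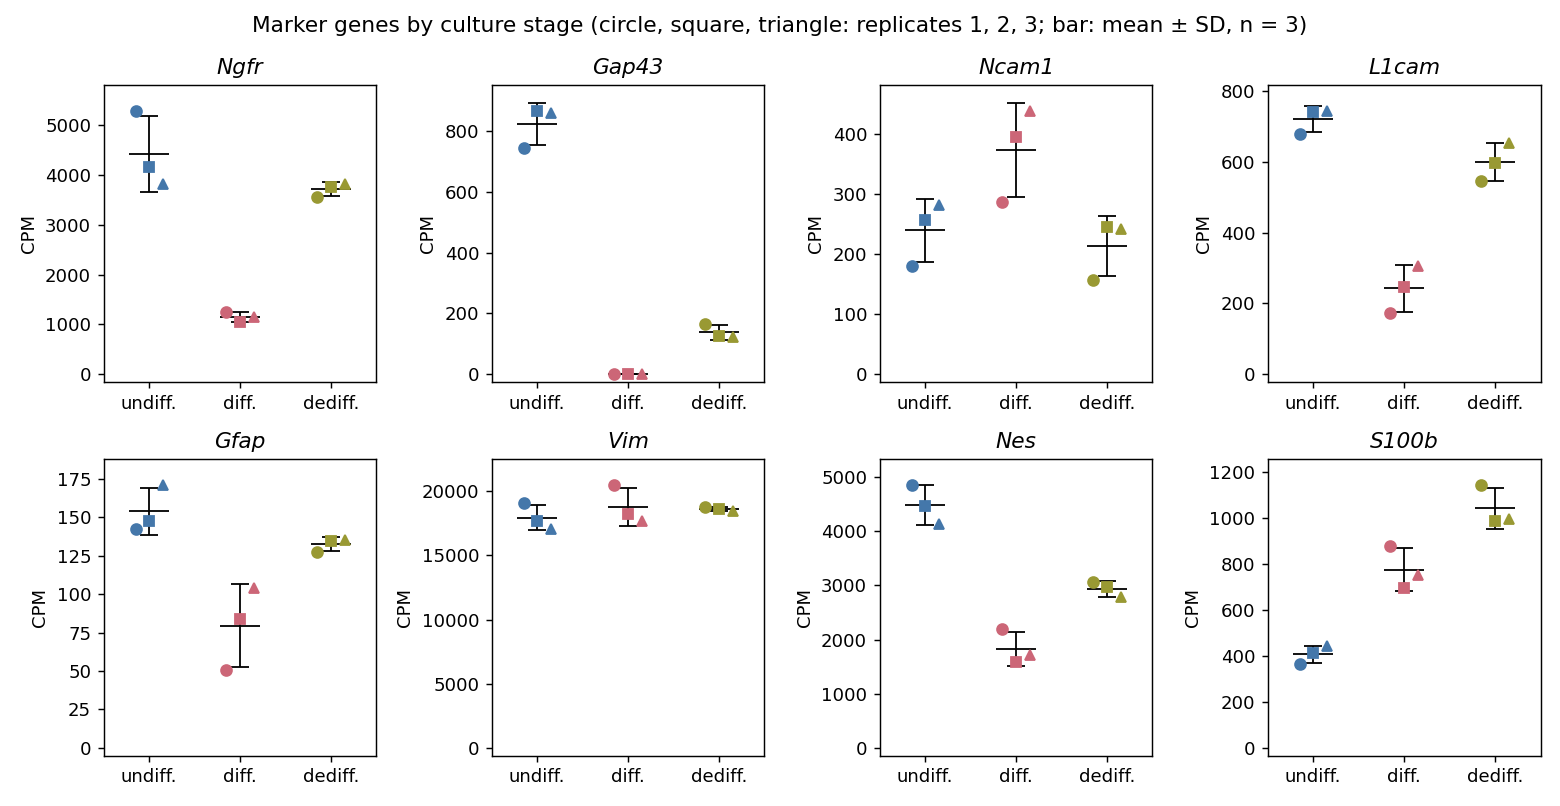
CPM of the 8 marker genes (vertical axes, each gene on its own linear scale) in undifferentiated, differentiated and dedifferentiated cells. Points are libraries (circle, square and triangle for replicates 1, 2 and 3) and bars are mean ± SD (n = 3). Gap43 lies between 0 and 0.442 CPM in differentiated cells, Ncam1 is highest there, Vim is level and S100b is lowest in undifferentiated cells.

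Ngfr encodes the low-affinity neurotrophin receptor, which binds all neurotrophins and their precursors and is a standard surface marker of immature and Remak cells. It measured 5287, 4163 and 3819 CPM in replicates 1, 2 and 3 of undifferentiated cells, 1253, 1052 and 1139 in differentiated cells and 3570.0, 3767 and 3829 in dedifferentiated cells. The differentiated libraries lay below all others, and the undifferentiated and dedifferentiated ranges met at 3819 to 3829 CPM. From undifferentiated to differentiated cells Ngfr fell by 2.01 on the log2 scale (SE 0.144; edgeR adjusted p = 8.05e-07), and on withdrawal it rose by 1.71 (SE 0.143; edgeR adjusted p = 6.37e-06). Dedifferentiated cells stood at 84.2% of the undifferentiated mean, a log2 change of -0.30 that did not pass the threshold (SE 0.139; edgeR adjusted p = 0.129), though DESeq2's Wald test called it at an adjusted p of 0.049995. Under dbcAMP the receptor still averaged 1148 ± 101 CPM (SD, n = 3).

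Other receptors and enzymes that act with Ngfr did not follow it. Of 20 such genes 18 were tested. In differentiated against undifferentiated cells 7 were called higher and 8 lower, where 31.7% and 27.9% of all genes tested were. The median log2 change of the 18 was -0.16. Ntrk2 and Ntrk3, tyrosine kinase receptors that bind neurotrophins together with Ngfr, rose. Ntrk2 had means of 3.32, 79.3 and 13.9 CPM in undifferentiated, differentiated and dedifferentiated cells, and its log2 change under dbcAMP was 4.50 (edgeR adjusted p = 9.54e-05). Ntrk3 rose by 2.02 on the log2 scale with means of 13.4, 57.2 and 43.9 CPM at the 3 stages in order, and its change of -0.37 on withdrawal did not pass the threshold (edgeR adjusted p = 0.0617), though without replicate 1 of the differentiated cells it did (0.00665). Sorcs1, a sorting receptor of the sortilin family, and Lingo1, a co-receptor, rose by log2 changes of 2.40 and 3.11 and did not pass the threshold on withdrawal (edgeR adjusted p = 0.753 and 0.641). Adam17, the protease that sheds the Ngfr ectodomain, rose by 1.97 on the log2 scale under dbcAMP and fell by 1.53 on withdrawal. On withdrawal 7 of the 18 genes were called higher and 5 lower, where 23.2% of all genes tested were called in each direction. Against undifferentiated cells 6 were called higher and 4 lower, where 16.1% and 13.3% of all genes tested were.

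Gap43 encodes a growth-associated phosphoprotein of the inner membrane that binds calmodulin and is made by growing axons as well as by immature, Remak and repair Schwann cells. It was close to absent in differentiated cells. Its counts were 9233, 9003 and 13130 in undifferentiated libraries, 6, 5 and 0 in differentiated and 1939, 1269 and 1600 in dedifferentiated ones. In CPM these were 744, 866 and 859, then 0.442, 0.386 and 0, then 164, 126 and 120.3. No library of any stage overlapped with another stage. Over the summed counts, 31366 against 11, undifferentiated cells held 3199 times the CPM of differentiated cells, with a 95% interval of 1788 to 6410 that covers counting error only. The fitted log2 change was -11.64 (SE 0.336; edgeR adjusted p = 2.86e-09) and depends on the prior count, as 1 library was at 0. By p it ranked 11 among the 10372 genes tested in this comparison. On withdrawal Gap43 rose, to 532 times the differentiated level over the summed counts (4808 against 11, 95% interval 297 to 1065, counting error only). It remained below undifferentiated cells at 16.6% of their mean, with a fitted log2 difference of -2.63 (SE 0.190; edgeR adjusted p = 5.12e-06).

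Genes related to Gap43 moved much less. The list held 14 genes (members of its family, stathmins, calmodulins and protein kinase C isoforms, the kinase family that phosphorylates Gap43). Of these 10 were tested. Under dbcAMP 4 were called higher and 4 lower, where 31.7% and 27.9% of all genes tested were. The median log2 change of the 10 was 0.12. Basp1 and Marcksl1, membrane proteins of the same calmodulin-binding kind, fell by 0.75 and 0.78 on the log2 scale, and neither passed the threshold on withdrawal (edgeR adjusted p = 0.371 and 0.204), although Marcksl1 did without replicate 1 of the dedifferentiated cells (0.0382). Stmn4, a stathmin that binds tubulin, fell by 3.60 and rose by 2.89 on withdrawal. Prkcb rose by 2.93 and fell by 1.22 on withdrawal. On withdrawal 2 of the 10 were called higher and 1 lower, where 23.2% of all genes tested were called in each direction.

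The 2 adhesion molecules moved in opposite directions. L1cam, a cell surface protein that binds itself on the next membrane, measured 678, 740 and 743 CPM in undifferentiated, 172, 247 and 307 in differentiated and 545, 597 and 653 in dedifferentiated cells. The 3 stages did not overlap. L1cam fell by 1.64 on the log2 scale under dbcAMP (SE 0.166; edgeR adjusted p = 1.07e-05) and rose by 1.32 on withdrawal (SE 0.164; edgeR adjusted p = 9.72e-05). Its shortfall against undifferentiated cells, -0.32, did not pass the threshold (SE 0.161; edgeR adjusted p = 0.168), although without replicate 1 of the differentiated cells it did (edgeR adjusted p = 0.0405). Ncam1, the neural cell adhesion molecule that Remak cells keep and myelinating cells lose in nerve, measured 180, 256 and 281 CPM in undifferentiated, 286, 394 and 437 in differentiated and 156, 244 and 241 in dedifferentiated cells. The differentiated libraries lay above both other stages, with a margin of 281 to 286 CPM to the nearest one. Ncam1 was higher in differentiated cells by 0.58 on the log2 scale (SE 0.202; edgeR adjusted p = 0.0291). That call was lost without replicate 1 or 2 of the undifferentiated cells (edgeR adjusted p = 0.0907 and 0.0605), without replicate 2 or 3 of the differentiated cells (0.0739 and 0.108) and within the first sequencing project (0.116). On withdrawal Ncam1 fell by 0.79 (SE 0.203; edgeR adjusted p = 0.00917), a call that was lost within the first project (0.074). The change against undifferentiated cells was -0.21 (SE 0.203; edgeR adjusted p = 0.481).

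The ratio of the adhesion genes within a library does not depend on scaling. There were 3.76, 2.89 and 2.64 counts of L1cam for each count of Ncam1 in undifferentiated cells, 0.6, 0.627 and 0.701 in differentiated cells and 3.49, 2.44 and 2.71 in dedifferentiated cells. The mean log2 ratio changed from 1.61 ± 0.265 to -0.64 ± 0.116 and then to 1.51 ± 0.265 (SD, n = 3). Differentiated libraries did not overlap with either other stage, which gave a two-sided exact permutation p of 0.1, the smallest that 3 libraries against 3 allow. Dedifferentiated and undifferentiated libraries overlapped (two-sided exact permutation p = 0.6). Of 15 comparisons of 5 such ratios, which were chosen after the values were seen, 12 had no overlap, and none can pass an adjusted threshold at this size.

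**Figure D2:**
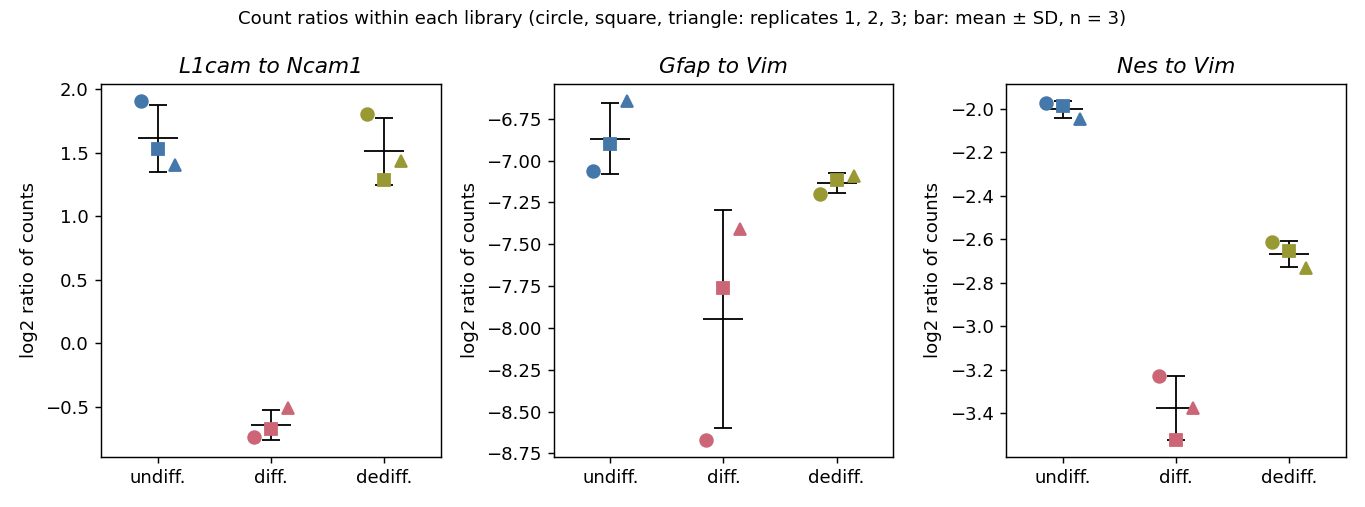
Log2 ratio of counts of L1cam to Ncam1, Gfap to Vim and Nes to Vim within each library (vertical axes, each with its own range, not starting at 0) by stage. Points are libraries and bars are mean ± SD (n = 3). The L1cam to Ncam1 ratio is lowest in the 3 differentiated libraries and overlaps between the other stages, while Nes to Vim differs between all 3 stages.

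Other adhesion genes were also divided. Of 22 immunoglobulin adhesion molecules, polysialic acid enzymes and ligands 11 were tested, and 4 were called higher and 5 lower under dbcAMP. On withdrawal 8 were called higher and 2 lower, with a median log2 change of 0.74. The share of all genes tested was 31.7% higher and 27.9% lower under dbcAMP and 23.2% in each direction on withdrawal. Cadm2 and Cadm1, nectin-like adhesion molecules, were called lower under dbcAMP and higher on withdrawal. Cadm2 had means of 89.7, 7.68 and 84.2 CPM at the 3 stages in order and was not called against undifferentiated cells (edgeR adjusted p = 0.466). Cadm1 had means of 512, 55.7 and 279 CPM and remained lower than in undifferentiated cells, with a log2 change of -0.93 (edgeR adjusted p = 9.65e-05). Alcam rose to 190.2 CPM from 97.5 and to 236 on withdrawal, where the call was lost within the first project (edgeR adjusted p = 0.0689). Nfasc, whose glial form holds the myelin loops to the axon beside the node, was near the floor in undifferentiated cells with 3, 2 and 0 counts. It reached 3.39, 2.16 and 1.79 CPM in differentiated and 111, 45.8 and 40.9 CPM in dedifferentiated cells, a log2 change of 4.78 on withdrawal (edgeR adjusted p = 1.47e-05). The polysialyltransferases St8sia2 and St8sia4, which modify Ncam1 in immature cells, did not pass the filter.

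The 3 intermediate filament genes, which encode the cytoskeleton by which glial maturity is often scored, did not all move alike. Gfap and Nes were called lower under dbcAMP and higher on withdrawal, and Vim was not called. Vim was the most abundant gene of the table by counts, with 1.71% to 2.05% of all counts in each library. Its values were 19062, 17703 and 17093 CPM in undifferentiated, 20493, 18225 and 17706 in differentiated and 18768, 18656 and 18474 in dedifferentiated cells. All stages overlapped. Its log2 change was 0.01 under dbcAMP (SE 0.115; edgeR adjusted p = 0.974), and on withdrawal and against undifferentiated cells the edgeR adjusted p-values were 0.991 and 0.986. The sign turned in all 3 comparisons with no filter and in several fits without 1 library, and in 2 of them, not on withdrawal, with the size factors of DESeq2, so Vim has no direction here.

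Nes encodes nestin, a filament protein of dividing progenitors that assembles with vimentin. It measured 4857, 4469 and 4134 CPM in undifferentiated, 2186, 1588 and 1707 in differentiated and 3066, 2964 and 2780 in dedifferentiated cells. The 3 stages stood apart, with dedifferentiated cells between the others. Nes fell by 1.36 on the log2 scale under dbcAMP (SE 0.141; edgeR adjusted p = 1.3e-05), rose by 0.70 on withdrawal (SE 0.139; edgeR adjusted p = 0.00219) and remained below undifferentiated cells at -0.66 (SE 0.139; edgeR adjusted p = 0.00491, and 0.0591 within the first sequencing project). Against Vim in the same library, the counts of Nes were 0.255, 0.252 and 0.242 in undifferentiated, 0.107, 0.0871 and 0.0964 in differentiated and 0.163, 0.159 and 0.15 in dedifferentiated cells.

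Gfap encodes glial fibrillary acidic protein, which in nerve marks Remak and injured Schwann cells. It measured 143, 148 and 171 CPM in undifferentiated, 50.4, 84.0 and 104 in differentiated and 128, 135 and 136 in dedifferentiated cells. The stages did not overlap, and the differentiated libraries were the most spread, with replicate 1 the lowest. Gfap fell by 1.02 on the log2 scale (SE 0.193; edgeR adjusted p = 0.00101) and rose by 0.75 on withdrawal (SE 0.193; edgeR adjusted p = 0.00872). Dedifferentiated cells were at 86.2% of the undifferentiated mean, which did not pass the threshold (log2 change -0.26, SE 0.191; edgeR adjusted p = 0.34). In all 3 stages replicate 1 had the lowest Gfap, L1cam and Ncam1 and the highest Vim and Nes of its stage, and the labels do not say that libraries of the same number share a culture.

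Of 20 further filament and linker genes 10 were tested. Under dbcAMP 3 were called higher and 3 lower, where 31.7% and 27.9% of all genes tested were. On withdrawal 2 were called higher and 3 lower, where 23.2% of all genes tested were called in each direction. Against undifferentiated cells 0 were called higher and 2 lower, where 16.1% and 13.3% of all genes tested were. Nefl and Nefm, which encode neurofilament subunits, rose under dbcAMP and fell on withdrawal. Nefl had means of 126, 1090.0 and 205 CPM at the 3 stages in order. It changed by 3.04 (edgeR adjusted p = 0.000125) and then by -2.40 (0.000917) on the log2 scale. Nefm had means of 174, 585 and 195 CPM and changed by 1.68 (edgeR adjusted p = 0.000819) and then by -1.57 (0.00192). Synm, encoding synemin, which joins vimentin filaments to membrane complexes, had means of 208, 25.3 and 134 CPM at the 3 stages in order. Its log2 change was -3.09 under dbcAMP (edgeR adjusted p = 2.81e-07) and 2.42 on withdrawal. Sync, encoding syncoilin, fell by 2.39 and rose by 2.44. Among the lamins of the nuclear envelope, Lmnb2 alone was called under dbcAMP or on withdrawal. It was higher by 0.89 under dbcAMP. On withdrawal it fell by 0.55 (edgeR adjusted p = 0.00726, and 0.146 within the first sequencing project). Macf1, a linker of the cytoskeleton, fell by 0.78 and did not pass the threshold on withdrawal (edgeR adjusted p = 0.399).

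S100b encodes a calcium-binding protein that serves as the general marker of Schwann cells. It measured 366, 413 and 442 CPM in undifferentiated, 878, 697 and 751 in differentiated and 1145, 988 and 997 in dedifferentiated cells. It was the one marker of the 8 that rose at both steps, and no stage overlapped with another. S100b rose by 0.87 on the log2 scale under dbcAMP (SE 0.114; edgeR adjusted p = 7.07e-05) and by a further 0.44 on withdrawal (SE 0.113; edgeR adjusted p = 0.00887, and 0.0882 within the first sequencing project). Dedifferentiated cells stood at 256% of the undifferentiated mean, which is 1.31 in log2 (SE 0.115; edgeR adjusted p = 1.64e-05). This pattern of 3 higher calls was held by 0.771% of genes tested. In the S100 group S100a6 and S100a3 shared this pattern and the other tested genes did not. Of 17 (S100 proteins and their binding partners) 10 were tested. Under dbcAMP 2 of them were called higher and 5 lower, where 31.7% and 27.9% of all genes tested were. On withdrawal 8 were called higher and 0 lower, where 23.2% of all genes tested were called in each direction. S100a4, linked to cell movement, had means of 1289, 177 and 1037 CPM at the 3 stages in order, and S100a11 means of 145, 26.1 and 107 CPM. S100a10 fell by 1.64 on the log2 scale and remained below undifferentiated cells by a log2 change of -0.50 (edgeR adjusted p = 0.0197). S100a6 and S100a3 were called higher at both steps and against undifferentiated cells, where 2 of the 10 tested genes were called higher. S100a6 had means of 81.0, 118 and 309 CPM at the 3 stages, and its call under dbcAMP was lost without replicate 2 of the undifferentiated or replicate 1 or 3 of the differentiated cells (edgeR adjusted p = 0.0757, 0.0612 and 0.0785) and within the first project (0.177). S100a3 had 2, 2 and 1 counts in undifferentiated, 37, 9 and 15 in differentiated and 90, 42 and 73 in dedifferentiated cells, and its call on withdrawal was lost within the first project (edgeR adjusted p = 0.0817).

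**Figure D3:**
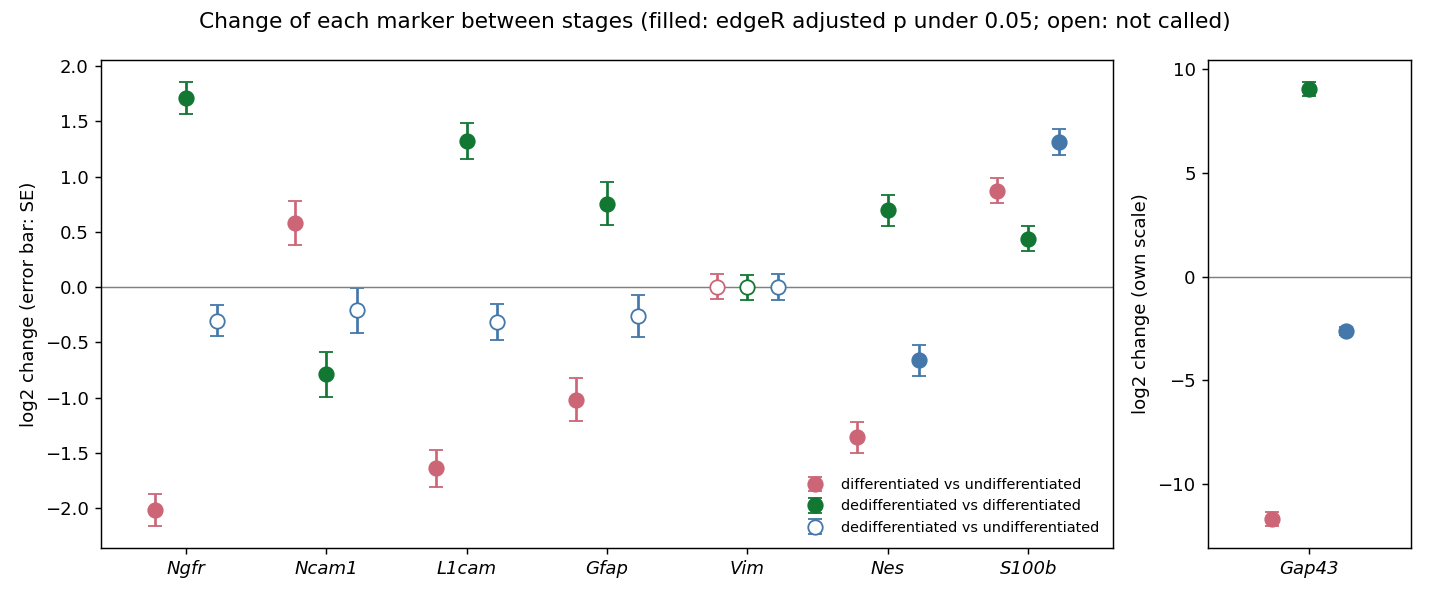
Log2 change of each marker in the 3 comparisons (vertical axis, edgeR fit; Gap43 on its own scale at the right), with the standard error as bar. Filled points passed an adjusted p under 0.05. Ngfr, L1cam, Gfap and Nes lie below 0 under dbcAMP and above 0 on withdrawal, Ncam1 the other way, S100b above 0 in all 3, and Vim within 0.01 of 0 in all 3.

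Withdrawal was read in 3 ways, all of which share libraries and are not independent. From differentiated to dedifferentiated cells 7 of 8 markers were called, 6 higher and Ncam1 lower, where 46.4% of all genes tested were called, 23.2% in each direction. The same 7 markers were free of overlap between libraries of these stages, as for 58.5% of all genes tested. Within the first sequencing project 5 of 8 were called, where 25.1% of all genes tested were. Against undifferentiated cells 3 of 8 were called, S100b higher and Gap43 and Nes lower, where 29.4% of all genes were called, 16.1% higher and 13.3% lower. The markers' share in that comparison is near the background. Libraries did not overlap for 5 of 8 markers, L1cam and Gfap beside the 3 that were called, as for 43.9% of all genes. Scaling by TMM in place of the column total separated Ngfr too, with undifferentiated libraries at 3810 to 5572 and dedifferentiated ones at 3569 to 3754 TMM-scaled CPM.

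Over the 3 comparisons in order (under dbcAMP, on withdrawal, and dedifferentiated against undifferentiated), Ngfr, L1cam and Gfap were lower, then higher, then not called, as 12.2% of genes tested were. Gap43 and Nes were lower, higher and lower, as were 5.91%. Ncam1 was higher, lower and not called, as were 12.6%, and Vim was not called in any of the 3, as were 30.9%.

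The size of the return is given for each marker as a point value, and differences between markers were not tested. On the log2 scale withdrawal undid 84.9% of the fall of Ngfr, 80.7% of that of L1cam, 74.3% of that of Gfap and 51.2% of that of Nes. For Gap43 the answer depended on the scale, with 77.4% of the fitted log2 change and 16.6% of the CPM difference undone. On the CPM scale the shares were 78.6% for Ngfr, 74.5% for L1cam, 71.5% for Gfap and 41.7% for Nes. For Ncam1 these shares were 136% of the log2 change and 119% of the CPM difference, and its difference from undifferentiated cells did not pass the threshold. S100b moved further away. The test of the midpoint asked whether a gene lay nearer the undifferentiated than the differentiated level on the log2 scale. Dedifferentiated cells lay above the midpoint for 4 of 8 markers, Ngfr, Gap43, L1cam and S100b, where 24.7% of all genes were called, 15% higher and 9.67% lower. For the first 3 this is the undifferentiated side. Ngfr lay 0.70 above the midpoint on the log2 scale (SE 0.118; edgeR adjusted p = 0.00175) and L1cam 0.50 (SE 0.137; edgeR adjusted p = 0.0226). Gfap and Nes were not told from the midpoint (edgeR adjusted p = 0.303 and 0.938), nor was Ncam1 at a log2 difference of -0.50 (edgeR adjusted p = 0.0662). Ncam1 was called below the midpoint by DESeq2 (Wald test, adjusted p = 0.0164) and, in edgeR, with no filter (adjusted p = 0.0454) and without replicate 1 of the undifferentiated (0.027) or of the differentiated cells (0.0339). The call of L1cam was lost without replicate 2 or 3 of the dedifferentiated cells (edgeR adjusted p = 0.0771 and 0.0968). Within the first project Gap43 and S100b were called, where 7.54% of all genes tested were.

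Further genes of immature and Remak cells, chosen from a list of 18 with 15 tested, gave a like division. Under dbcAMP 9 were called lower and 4 higher, where 27.9% and 31.7% of all genes tested were. The median log2 change of the 15 was -1.26. On withdrawal 8 were called higher and 4 lower, where 23.2% of all genes tested were called in each direction. Gfra1, the receptor for the trophic factor GDNF, had means of 1948, 365 and 1320 CPM at the 3 stages in order. Cdh19, a cadherin of the Schwann cell lineage, had means of 250.3, 51.2 and 291 CPM, and Itga1, an integrin of Remak cells, means of 149, 31.8 and 130.4 CPM. Dhh, the signal by which Schwann cells organise the perineurium, and Ednrb, an endothelin receptor of the precursor stage, rose by log2 changes of 2.84 and 2.69, and their log2 changes on withdrawal were -1.61 and -2.16. Fabp7, a marker of Schwann cell precursors, and Pax3 did not pass the filter. The plot of the related lists shows this spread.

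**Figure D4:**
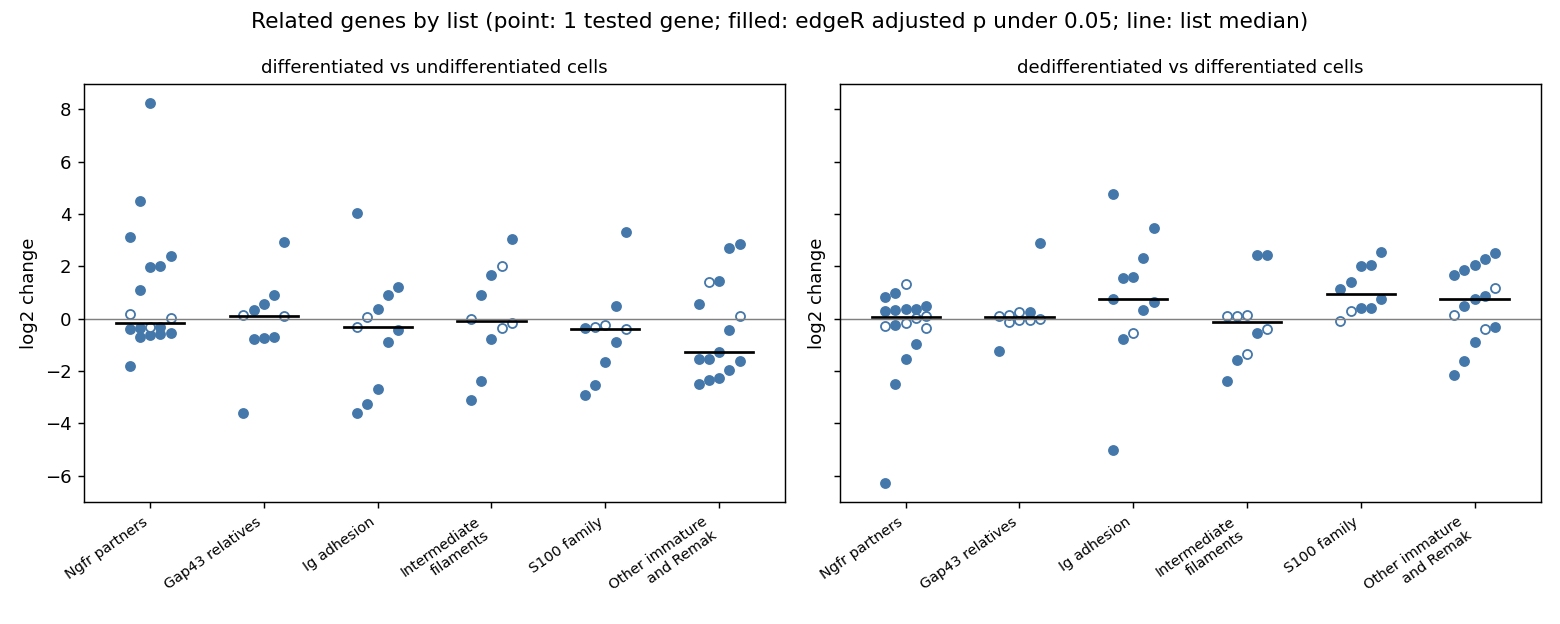
Log2 change of each tested gene of the 6 related lists (points; filled where the edgeR adjusted p was under 0.05) under dbcAMP (left) and on withdrawal (right), with the list median as a line. Every list holds genes on both sides of 0 under dbcAMP, and the other immature and Remak genes have the lowest median there, at -1.26.

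The tested genes most like each marker were sought by Pearson r of log2 CPM over the 9 libraries, among 7748 genes with a mean of at least 10 CPM. These correlations are largely set by the 3 stages, which all 9 libraries share, and no p is given. Ngfr was matched best by Arpc1b (r = 0.997) and Eml1 (0.996), Gap43 by Ankrd6 and Sema3e (0.996 and 0.995) and L1cam by Sapcd1 and Wbscr17 (0.998 and 0.996). Gfap was matched by Wbscr17 too (0.973) and by Tyro3 (0.968), Nes by Crabp2 (0.992) and Large (0.990), and S100b by Elmo1 and Fnta (0.995 and 0.991). Ncam1 and Vim had looser matches, Tanc1 and Ruvbl1 for Ncam1 (0.959 for both) and Zbtb10 and Mien1 for Vim (0.927 and 0.889). Sema3e, a semaphorin, went from 411 to 5.20 and 146 CPM at the 3 stages, beside 823, 0.276 and 137 CPM for Gap43. Among the markers themselves Ngfr and Gap43 had the highest r, 0.975, and Ngfr and Ncam1 the lowest, -0.78.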

How the data were processed

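Cell mRNA of 9 libraries was used here. The values are estimated counts per gene that the authors deposited and, per the name of their table, made with salmon. The submitters' processing notes list STAR, HISAT2, Salmon and DESeq2 1.26.0 among the tools without roles, and the build, annotation and strand setting are not given in the sources used here. Reads that several genes share could be split between them, and 1.15% of values were fractional, none of them of the 8 markers. Columns were matched to samples by library code and stage, and replicate numbers follow the titles, from which the column suffixes differ. The kit was strand-specific and took 10 ng of RNA, per the labels' protocols. Vesicle miRNA and lncRNA were not analysed here.

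Counts were rounded and tested with edgeR 4.0.16 in R 4.3.3 (filterByExpr at 10 counts, library sizes from all rows, TMM scaling, a quasi-likelihood fit of the 9 libraries without covariates). A call needed a p under 0.05 after Benjamini-Hochberg adjustment over the 10372 of 17315 genes tested. The standard error is the log2 change over the square root of F. The fourth contrast set dedifferentiated cells against the mean of the other stages. Ratios were tested by exact permutation (scipy 1.17.1). Replicate 3 of each stage belongs to another sequencing project than replicates 1 and 2. Same-numbered libraries deviated together in 7 of 9 pairs by r over 0.1 (lowest 0.028), short of a pairing in all, so the block is an alternative. Other alternatives were DESeq2 1.42.0 size factors and Wald test, library size alone, no filter, 10 counts in every library, the project as covariate or the first project alone, no 10 most abundant genes, a log2 change above 1 and leaving out each library. The markers and gene lists were chosen with earlier results of these data known. Up to 6 genes of a list were named, by size of change among those called under dbcAMP whose libraries did not overlap, and some genes that this rule names are not reported here. The 2 genes most like each marker were named by r.
The p-values measure the spread between cultures of bought cells, which may be technical.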

Additional observations from a re-analysis of the deposited data

How the results depend on the processing

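The counts of markers called, 7, 7, 3 and 4 in the 3 pairwise comparisons and against the midpoint, stayed within 1.5 times under both scalings, DESeq2's Wald test, both filters, the project covariate and without the 10 most abundant genes. A log2 change above 1 left 3 markers on withdrawal and 1 against the midpoint, and cut all genes called to 2569, 1613, 992 and 591 in the same order. The first project alone, with 2 libraries a stage, gave 2 markers against the midpoint, and 2606, 1283 and 782 of all genes called on withdrawal, against undifferentiated cells and against the midpoint, where all 9 libraries gave 4809, 3045 and 2558. With the replicate block 7, 7, 3 and 5 markers and 6325, 5031, 3256 and 2799 genes were called, the added one being Ncam1 against the midpoint (edgeR adjusted p = 0.000585). Libraries correlated best with their own number in both other stages for 7 of 9, and the numbers are not shown to be pairs. Leaving out each replicate in turn gave 6 to 7, 7, 3 to 4 and 3 to 5 markers and 5558 to 6415, 3916 to 5184, 2246 to 3044 and 1669 to 2655 genes called in the same order. The lowest midpoint counts came without replicate 3 (1669) or 2 (1679) of the dedifferentiated cells. Over the same fits the log2 change of Vim ranged from -0.0723 to 0.0705 under dbcAMP, -0.0516 to 0.0765 on withdrawal, -0.0502 to 0.0692 against undifferentiated cells and -0.0256 to 0.0403 against the midpoint. Nes against the midpoint ranged from -0.0316 to 0.0986, and on withdrawal Prkca from -0.154 to 0.0707 and Macf1 from -0.0125 to 0.199.
The direction of Vim, which was not called under any setting, turned under several. Under dbcAMP its log2 change was -0.03 with DESeq2's size factors (-0.0275 by the Wald test) and -0.0224 with no filter. On withdrawal it was 0.00551 with no filter, 0.00275 with the replicate block and 8.46e-05 with the project covariate. Against undifferentiated cells it was -0.0295 with DESeq2's size factors and by the Wald test, -0.0169 with no filter and -0.0347 in the first project. Against the midpoint it was -0.0158 with DESeq2's size factors and by the Wald test, -0.00571 with no filter, -0.0041 with 10 counts in every library and -0.0352 in the first project. Nes against the midpoint was -0.000894 and Prkca on withdrawal 0.00185 in the first project. The filter of 10 counts in every library removed Gap43. The cause of these moves was not tested. Gap43 in differentiated cells, at 0 to 6 counts a library, is limited by depth.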
